A study of Arabidopsis thaliana with 14 samples.

Results

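COR47 (AT1G20440) and COR15A (AT2G42540) are genes of Arabidopsis thaliana named for their induction by cold, and they are described here across roots and inflorescences of wild-type and gir1 plants. The members were the probe sets that name either gene alone in the platform annotation. This rule used no values, but the genes themselves were chosen with earlier results of these data known. Each gene had 1 such probe set, so there were 2 members among the 13286 genes named alone by a probe set and the 22810 probe sets of the array. The mutant gir1 takes its name from GLUCOSE-INHIBITED ROOT ELONGATION1, and its arrays carry the genotype name gir. The wild type was Col-7. The 4 groups of Affymetrix arrays were compared, each array carrying labelled total RNA. Roots came from plants aged 21 days that had been on 4% glucose (3 gir arrays and 3 Col-7 arrays), and inflorescences came from plants aged 33 days on soil (4 gir arrays and 4 Col-7 arrays). Root plants of both genotypes had spent 11 days without glucose and then 10 days on 4% glucose according to the series' design text, whereas the sample protocol gives 7 days on the first plate and no later times. Opened and opening flowers had been taken off the inflorescences of both genotypes. The labels name no agent other than glucose, do not describe the allele, and do not say whether replicates came from separate plants or whether plants were pooled, so the p-values reflect spread that may be technical. GIR1 is tied to no locus in the tables used, and its transcript was not analysed here.

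Cold raises COR transcripts in Arabidopsis mainly through the CBF transcription factors, which bind a short element in the promoters of these genes, and abscisic acid and drought raise them through further promoter elements. COR47 is an acidic dehydrin, a hydrophilic protein of the late embryogenesis abundant (LEA) class that stays soluble and protects membranes and enzymes when cells lose water. COR15A is a small LEA-like protein that is imported into the chloroplast stroma, where it stabilises membranes during freezing. Plants were not treated with cold or abscisic acid in any group as far as the labels say, so the values are levels under the growth conditions given.

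The 14 arrays hold MAS5 intensities on a linear scale, and their number limits the precision. Between arrays of one group, log2 values correlated at 0.983 to 0.993. EXPA7 and EXPA18 were the 2 measured genes of a root hair and root list of 10. Their summed intensities were 1933 to 2368 in roots and 25.5 to 91.5 in inflorescences. The 7 measured genes of a late pollen list of 15 had summed intensities of 33.5 to 63.6 in roots and 3364 to 3846 in Col-7 inflorescences. Of 8 floral identity genes only UFO and SPT were measured, and UFO was dim on all arrays (at most 26.7), so the flower label rests here mainly on the pollen genes. The poly-A control dap averaged 1.52 to 11.1 on root arrays and 184 to 246 on inflorescence arrays. Ratios of 3' to 5' signal differed as well, for actin at 1.40 to 1.72 in roots and 1.99 to 2.34 in inflorescences. For GAPDH they were 0.851 to 0.976 in roots and 1.12 to 1.34 in inflorescences. A difference in sample handling therefore cannot be told apart from tissue.

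COR47 stood at a similar level in 3 of the groups and was lower in the fourth, gir inflorescences. In Col-7 roots its intensities were 5764, 5475 and 6082, with a mean of 5774 ± 303 (SD, n = 3). In gir roots they were 5903, 6377 and 6081, with a mean of 6120 ± 240 (n = 3). In Col-7 inflorescences they were 6954, 5794, 6497 and 6304, with a mean of 6388 ± 480 (n = 4). These 3 groups overlap, and their lowest array is the one at 5475. In gir inflorescences COR47 was at 3630, 4110, 3972 and 3828, with a mean of 3885 ± 205 (n = 4), and the highest of these arrays lies below the lowest array of every other group.

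COR15A followed another order, with the tissues apart. In Col-7 roots its intensities were 347, 301 and 290, with a mean of 313 ± 30.6 (SD, n = 3), and in gir roots they were 220, 202 and 287, with a mean of 236 ± 44.6 (n = 3). Every root array was above its own 40th percentile (111 to 120), so the transcript was dim in roots but not at the floor. In Col-7 inflorescences COR15A was at 8905, 9115, 5173 and 3833, with a mean of 6757 ± 2660 (n = 4). In gir inflorescences it was at 4834, 8192, 6316 and 4011, with a mean of 5838 ± 1840 (n = 4). All inflorescence arrays lie far above all root arrays, while the genotypes overlap broadly within inflorescences. From highest to lowest the group means ran Col-7 inflorescence, gir inflorescence, Col-7 root and gir root, and the neighbours at the top of this order do not differ beyond their spread.

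**Figure D1:**
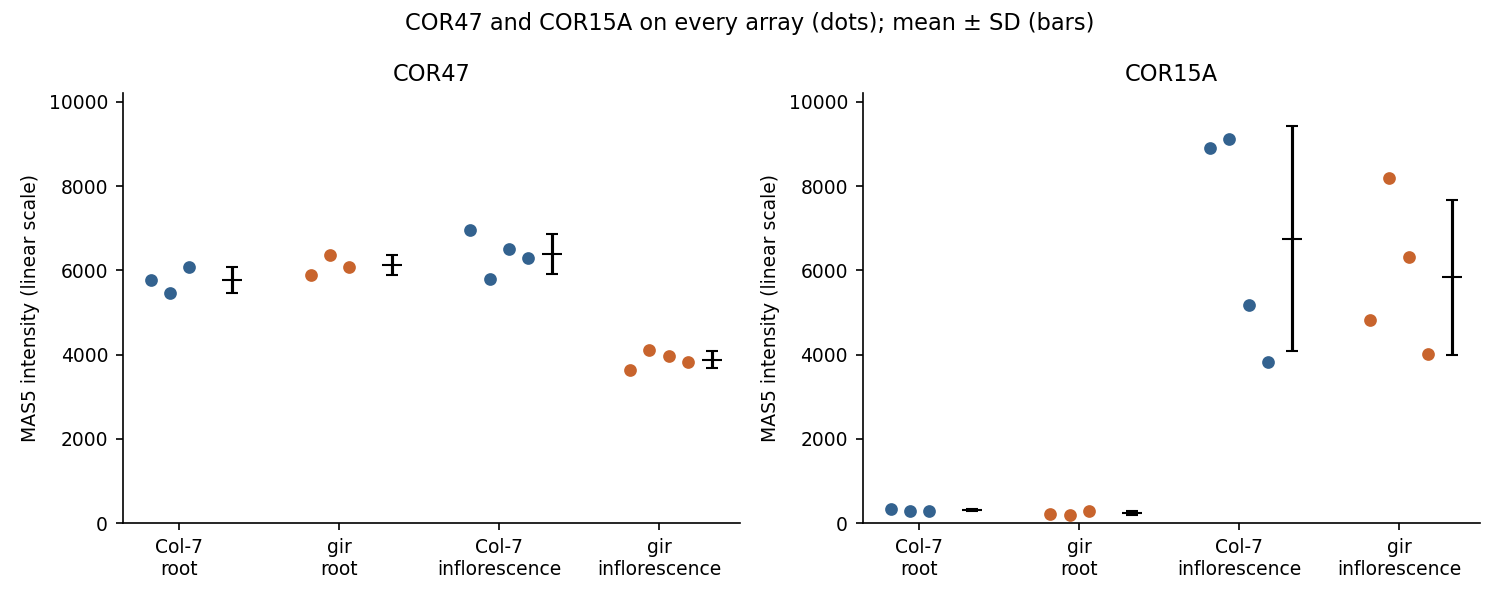
MAS5 intensity (linear scale) of COR47 and COR15A on each of the 14 arrays, by group. Dots are arrays and the bars beside them the mean ± SD. For COR47 only the 4 gir inflorescence arrays stand apart, at 3630 to 4110, while COR15A separates roots (202 to 347) from inflorescences (3833 to 9115).

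The first comparison asks how the gir1 mutation goes with the level of these genes in inflorescences. COR47 fell in gir inflorescences by 0.71 ± 0.08 on the log2(intensity + 26) scale (SE, n = 4 each, limma adjusted p = 1e-04), to 0.61 of the Col-7 level, with a 95% interval of 0.538 to 0.692. The fall was present in each of the 4 pairs of equally numbered arrays, with log2 differences of -0.93, -0.49, -0.71 and -0.72. A change as low or lower was seen for 6.19% of the 13970 probe sets tested, and 13% had all gir arrays below all Col-7 arrays. As background, 25% of those probe sets passed the threshold, 12.5% of them as lower in gir and 12.5% as higher, and after centring each array on its median 1577 were lower and 2473 higher. A call by itself is therefore common in this tissue. In these whole tissues, fewer cells of a type and less RNA per cell cannot be told apart.

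Markers of late pollen moved in the same direction in the same arrays. The summed intensity of the 7 measured pollen genes was 3364 to 3846 in Col-7 inflorescences and 368 to 619 in gir inflorescences. The 6 of them that were tested were each at or above the 40th percentile on all 4 Col-7 inflorescence arrays. In gir inflorescences only ACT12 was, on 2 arrays. These genes thus passed the filter through Col-7, which favours falls, and all 6 fell, with a median log2 change of -2.18. No measured pollen gene was at 0 on any array. LHCB4.1 and RCA, the 2 measured genes of a green tissue list of 7, moved the other way. Their summed intensity was 16470 to 18490 in Col-7 inflorescences and 20580 to 22700 in gir inflorescences. The part of these cell types in the COR47 difference was not tested. In roots, where the pollen genes summed to at most 63.6, COR47 had about the level it had in Col-7 inflorescences. A level in roots does not show how much of the inflorescence signal came from pollen.

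COR15A gave no difference between genotypes that could be detected in inflorescences. Its log2 change was -0.17 ± 0.30 (SE, n = 4 each, limma adjusted p = 0.72), and the 95% interval of -0.835 to 0.495 covers anything from 0.561 to 1.41 of the Col-7 level. The equally numbered pairs differed by -0.88, -0.15, 0.29 and 0.07, so the sign was not the same in all of them. The COR47 change of -0.71 lies inside this interval. With the replicate number as a block, the COR15A change was -0.17 ± 0.17 (SE, limma adjusted p = 0.47) with a narrower 95% interval of -0.562 to 0.222, which does not reach that value. The difference between the changes of the genes was not itself tested.

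The interval without the block is set by the spread between arrays of one group. The pooled SD of COR15A within inflorescence groups was 0.535 on the log2 scale, larger than that of 99.1% of the probe sets tested, whose median was 0.147. COR47 varied little in the same arrays, with a pooled SD of 0.094, larger than that of only 17.9%. COR15A was highest in replicate 2 and lowest in replicate 4 of both genotypes. The 25S ribosomal RNA control also differed by replicate number, at 345 and 359 in replicate 1 (Col-7 and gir), 835 and 954 in replicate 2, 3424 and 2768 in replicate 3, and 6585 and 8660 in replicate 4. Its part in the spread of COR15A was not tested. With replicates 1 and 2 alone the log2 change of COR15A was -0.52, and with replicates 3 and 4 alone it was 0.18, neither past the threshold (limma adjusted p = 0.23 and 0.61). The corresponding values for COR47 were -0.713 and -0.711, both past the threshold (limma adjusted p = 0.021 and 0.0022).

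**Figure D2:**
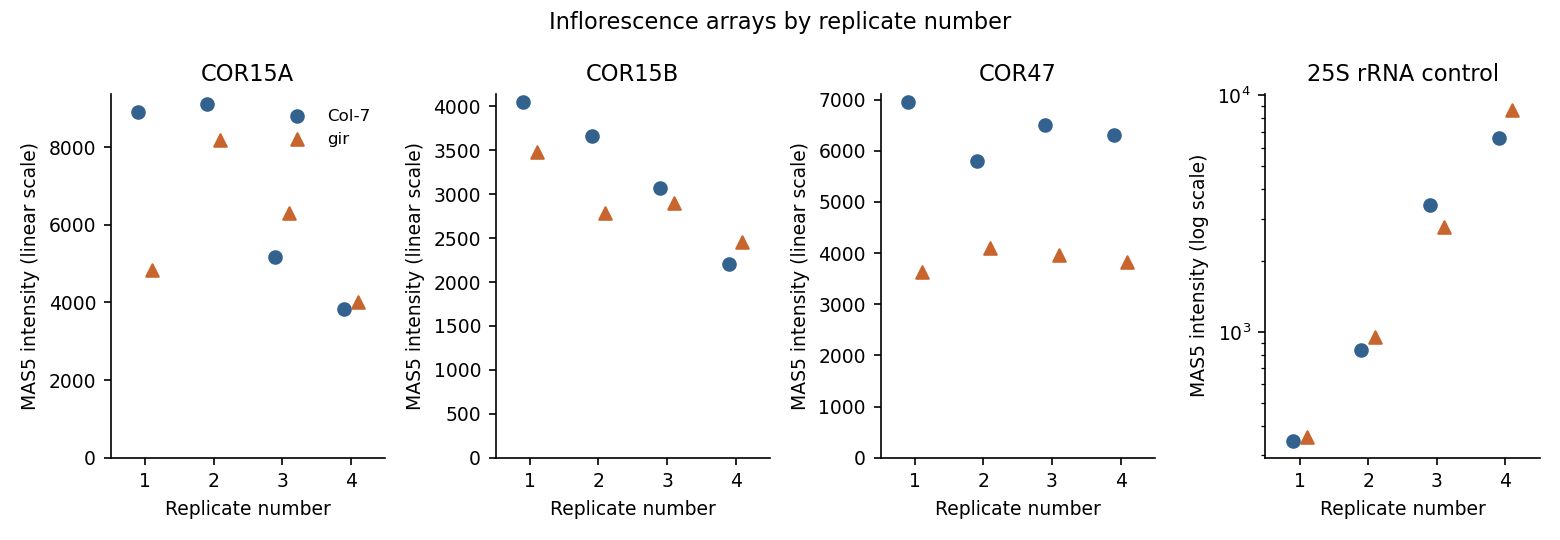
Intensities of COR15A, COR15B and COR47 (linear scale) and of the 25S ribosomal RNA control (log scale) on the 8 inflorescence arrays, by replicate number, with circles for Col-7 and triangles for gir. COR15A and COR15B are lowest in replicate 4 of both genotypes, where the 25S signal is 6585 and 8660, whereas COR47 separates by genotype at every number.

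In roots on 4% glucose, COR47 did not differ between genotypes beyond its spread. Its log2 change was 0.08 ± 0.07 (SE, n = 3 each, limma adjusted p = 0.51), with a 95% interval of 0.945 to 1.19 of the Col-7 level. COR15A was lower in gir roots, at a log2 change of -0.38 ± 0.12 (SE, n = 3 each), and did not pass the threshold after adjustment (limma adjusted p = 0.083, unadjusted p = 0.014). Its gir and Col-7 root arrays do not overlap, but only just, since the highest gir array was at 287 and the lowest Col-7 array at 290. Of the 13799 probe sets tested in roots, 17.3% had all gir arrays below all Col-7 arrays, 27.1% had an unadjusted p under 0.05, and 11.9% passed the threshold. The change missed the threshold in 12 of 13 alternatives, in which the limma adjusted p ran up to 0.56, in the joint fit over all 14 arrays. It passed in the remaining one (-0.51 ± 0.10, adjusted p = 0.023), which leaves out gir replicate 3, the gir array at 287 and nearest to Col-7. The 25S control was at 866 to 1270 in Col-7 roots and at 390 to 774 in gir roots, and the ratio of 3' to 5' actin signal at 1.40 to 1.56 and 1.60 to 1.72. The same ratio for GAPDH overlapped, at 0.851 to 0.923 in Col-7 roots and 0.896 to 0.976 in gir roots. Their part in the COR15A values was not tested.

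The genotype effect on COR47 differed between the tissues. The change in inflorescences minus that in roots was -0.80 ± 0.11 (log2, SE, limma interaction over all 14 arrays, adjusted p = 0.00013). Of 11911 probe sets tested in both tissues, 18.2% passed this test. The corresponding difference for COR15A was 0.21 ± 0.39 (adjusted p = 0.75), with a 95% interval from -0.625 to 1.04 that includes differences in either direction.

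Between tissues the genes differed most in scale. COR15A was higher in inflorescences than in roots by 4.24 ± 0.28 on the log2 scale in Col-7 (SE, 4 against 3 arrays, limma adjusted p = 2.8e-09), which is 18.8-fold with a 95% interval of 12.4 to 28.7. In gir the difference was 4.44 ± 0.28 (limma adjusted p = 1.7e-09), or 21.8-fold with an interval of 14.3 to 33.2. Only 2.36% of the 15858 probe sets tested in Col-7 and 1.29% in gir had a difference as high or higher. As background, 78.1% of them passed the threshold between tissues in Col-7 and 77.5% in gir, since tissue, age, medium, glucose and sample handling all change together and cannot be told apart here. The green tissue genes LHCB4.1 and RCA, which serve photosynthesis, were also higher in inflorescences, with summed intensities of 2566 to 2797 in roots and 16470 to 22700 in inflorescences. Their part in the COR15A difference was not tested.

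For COR47 the tissue difference depended on genotype. In Col-7 it was 0.14 ± 0.08 (log2, SE, limma adjusted p = 0.11). This value turned with the scaling, to 0.37 after quantile normalization (adjusted p = 0.0012) and to -0.004 after median centring (adjusted p = 0.96), which moved the median difference of all probe sets by -0.148. It also passed without Col-7 inflorescence replicate 2, the lowest of its group, at 0.19 (adjusted p = 0.044). In gir COR47 was lower in inflorescences than in roots, with a log2 difference of -0.65 ± 0.08 (SE, limma adjusted p = 2.4e-06), or 0.636 of the root level, and this call held under every alternative run, from -0.80 to -0.50.

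The other genes of cold and abscisic acid responses were taken from 5 lists with 98 loci, of which 7 had a probe set naming them alone, COR47 and COR15A included. None of the 17 cold transcription regulators, 12 genes of abscisic acid synthesis and breakdown or 28 genes of its receptors and signalling was among those 7, so the regulators upstream of both genes were not analysed here. The nearest dehydrin relatives, ERD10, which lies next to COR47 in the TAIR10.1 gene table, and ERD14, have no probe set named here either. In inflorescences 4 of the 7 passed the threshold, 3 lower and 1 higher in gir, against 25% of all probe sets. LEA4-5, among the 3, was at or above the 40th percentile there on its Col-7 arrays alone. The median log2 change of the 7 was -0.17 and that of all probe sets tested 0.06. In roots none of the 6 tested passed in limma (COR15A alone had an unadjusted p under 0.05), with a median of 0.06 against -0.01 for all probe sets. Without gir root replicate 3, COR15A as lower and ZAT10 as higher passed.

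COR15B (AT2G42530), the close relative of COR15A that lies beside it in the TAIR10.1 gene table, was likewise higher in inflorescences than in roots. In Col-7 roots its intensities were 55.4, 39.0 and 50.7, and in gir roots 54.8, 34.4 and 42.2, each under the 40th percentile of its array, so COR15B was not tested in roots. In Col-7 inflorescences they were 4052, 3656, 3067 and 2205, and in gir inflorescences 3475, 2784, 2896 and 2451. The genotypes overlap, with a log2 change of -0.14 ± 0.18 (SE, limma adjusted p = 0.62), and replicate 4 was again the lowest of both groups. The highest was replicate 1 in both groups, whereas COR15A was highest in replicate 2. COR15B was not among the 5 genes most like COR15A over all arrays or over the inflorescence arrays. Between tissues COR15B was higher in inflorescences by 5.43 ± 0.18 in Col-7 and 5.39 ± 0.18 in gir (log2, limma adjusted p = 8.3e-13 and 9.5e-13). COR15B entered these contrasts through its inflorescence arrays alone, since passing the filter in either tissue was enough. This favours a higher value in inflorescences, and the floor limits the size of these differences. Whether the probes of one gene also bind the transcript of the other was not tested.

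Among the 6 measured dehydrin and LEA genes, LEA4-5 (AT5G06760), a protein that accumulates during water deficit, fell furthest in gir inflorescences. Its intensities there were 536, 468, 539 and 580 in Col-7 and 62.2, 78.3, 55.7 and 61.8 in gir. The groups do not overlap, as for 13% of all probe sets in that direction. The log2 change was -2.62 ± 0.10 (SE, n = 4 each, limma adjusted p = 8.2e-08), and since each gir value was under the 40th percentile of its array the floor limits its size. LEA4-5 thus passed the filter in inflorescences through the Col-7 arrays alone, which favours a fall. In roots LEA4-5 was at 112 to 187 in Col-7 and 136 to 161 in gir, a log2 change of 0.03 ± 0.145 (adjusted p = 0.92). The effects in the tissues differed by -2.65 ± 0.18 (adjusted p = 1.9e-07). Between inflorescences and roots LEA4-5 was higher in Col-7 (1.69 ± 0.13, adjusted p = 1.5e-08) and lower in gir (-0.97 ± 0.13, adjusted p = 7.8e-06). LEA4-5 and COR47 thus share their lowest group, gir inflorescences. That group also had the lowest mean of LTI30 (405 ± 212, SD) and, by a small margin, of HIRD11 (9645 ± 1040), both described below.

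LTI30 (AT3G50970), a basic dehydrin that binds membranes, was high in roots and low in inflorescences, the reverse of COR15A. Its intensities were 6087 to 7340 in Col-7 roots and 6374 to 6991 in gir roots. In Col-7 inflorescences they were 883, 638, 1044 and 775, and in gir inflorescences 244, 292, 372 and 713. Replicate 4 of gir lies within the Col-7 range, so the groups overlap. LTI30 was lower in inflorescences than in roots by a log2 difference of -2.96 ± 0.26 in Col-7 and -4.06 ± 0.26 in gir (SE, limma adjusted p = 5.9e-08 and 1.5e-09). The log2 change in inflorescences was -1.09 ± 0.28 (SE, n = 4 each, limma adjusted p = 0.017). It missed the threshold without gir replicate 2 (-0.98, adjusted p = 0.056) and with replicates 3 and 4 alone (-0.77, adjusted p = 0.092).

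HIRD11 (AT1G54410), a small histidine-rich dehydrin that binds metal ions, differed little between groups. Its group means were 9739 ± 640 in Col-7 roots, 10300 ± 486 in gir roots, 9767 ± 843 in Col-7 inflorescences and 9645 ± 1040 in gir inflorescences (SD). The log2 change was 0.08 ± 0.08 in roots and -0.02 ± 0.10 in inflorescences (limma adjusted p = 0.55 and 0.90). ZAT10 (AT1G27730, also STZ), a zinc finger repressor induced by cold, salt and drought, rose in gir inflorescences. Its intensities were 1720, 1557, 2569 and 2349 in Col-7 and 3163, 4405, 4097 and 4727 in gir, without overlap, as for 14.9% of all probe sets in that direction. The log2 change was 1.01 ± 0.18 (SE, n = 4 each, limma adjusted p = 0.0021). In roots ZAT10 ranged from 749 to 3089 within gir alone, and its log2 change of 0.24 ± 0.46 did not pass (adjusted p = 0.78). A difference of the ZAT10 effect between tissues was not shown. It was 0.76 ± 0.515 (limma interaction adjusted p = 0.33), with a 95% interval of -0.335 to 1.863.

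**Figure D3:**
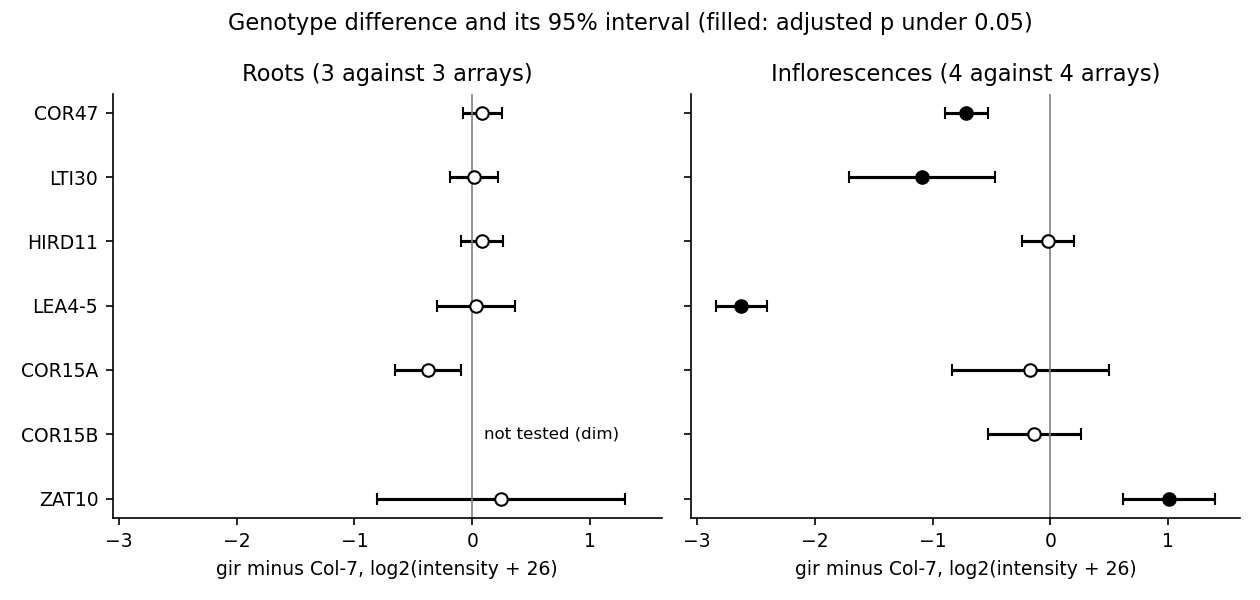
Log2 difference gir minus Col-7 with its 95% interval for the 7 measured genes of the cold and abscisic acid lists in roots and inflorescences, with filled points where limma's adjusted p was under 0.05. No point is filled in roots, and in inflorescences COR47 (-0.71), LTI30 (-1.09) and LEA4-5 (-2.62) lie below 0 and ZAT10 (1.01) above it.

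**Figure D4:**
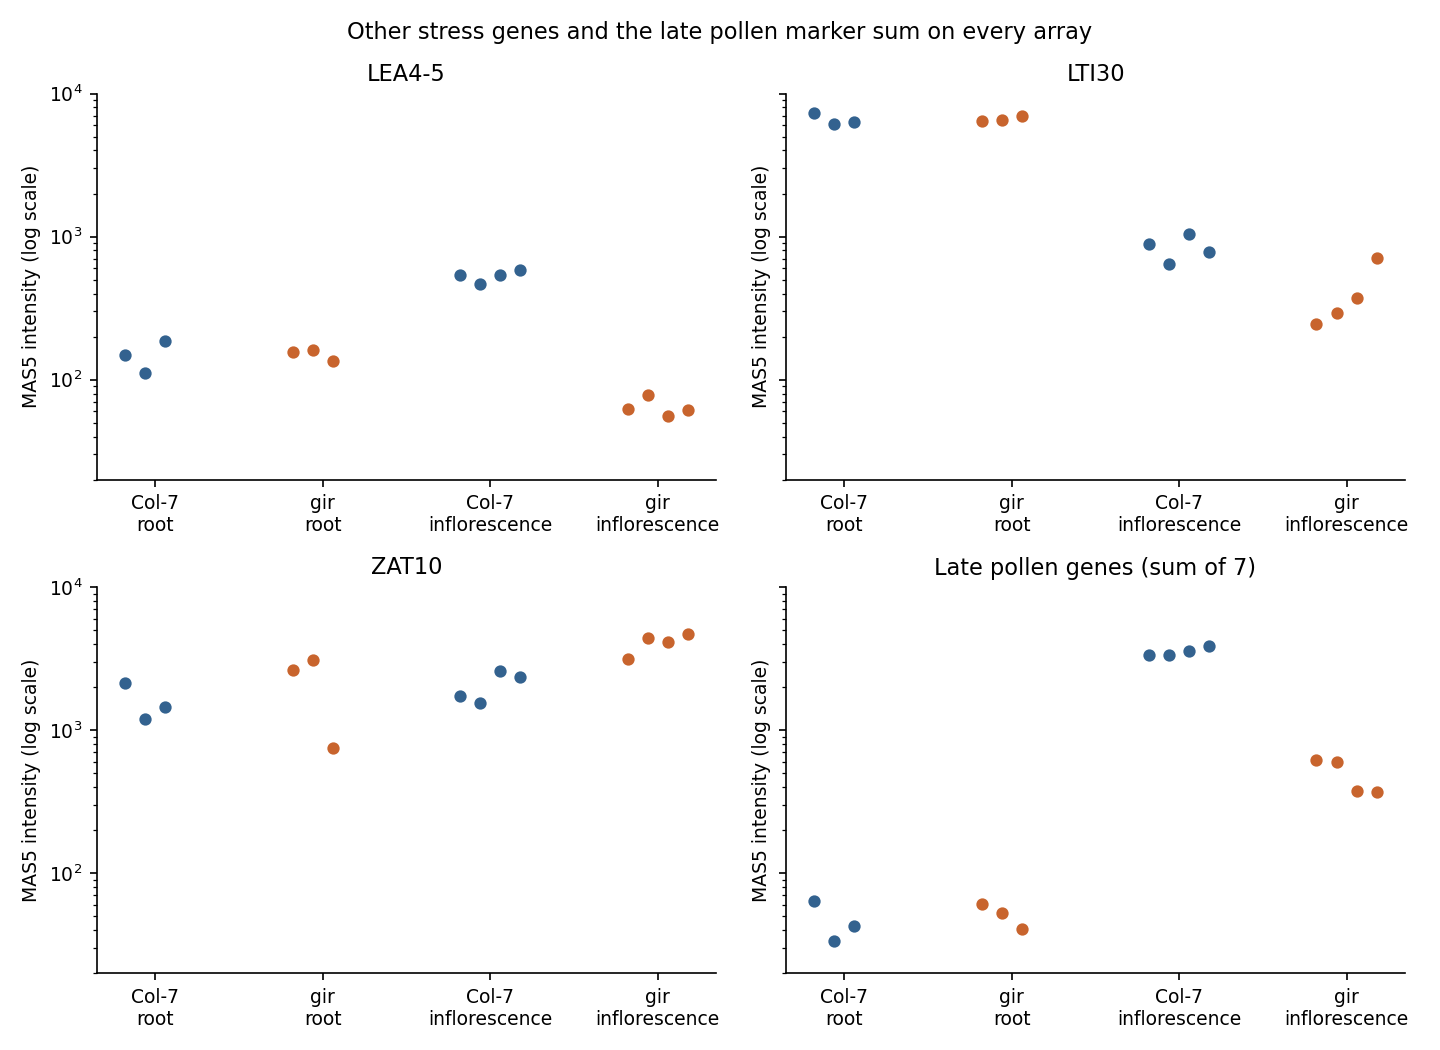
MAS5 intensity (log scale) of LEA4-5, LTI30 and ZAT10 and the summed intensity of the 7 measured late pollen genes on each array, by group. LEA4-5 and the pollen sum are both high in Col-7 inflorescences and lower in gir inflorescences, and LTI30 is highest in roots. LEA4-5 is lowest in gir inflorescences (55.7 to 78.3), whereas the pollen sum is lowest in roots (33.5 to 63.6).

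The genes whose pattern was most like that of each member were found by Pearson correlation of log2 values, a description over arrays that share tissue and genotype groups. Over all 14 arrays COR47 was most like AT1G05340 (r = 0.947), AT4G39670 (0.945), AT1G36050 (0.939), AT2G41190 (0.935) and AT2G20320 (0.935), among 8550 probe sets that name 1 gene and were tested. Only 0.222% of these had an r over 0.9 with COR47. AT1G05340 had means of 1424 ± 67.0 in Col-7 roots, 1549 ± 152 in gir roots, 1758 ± 476 in Col-7 inflorescences and 539 ± 139 in gir inflorescences (SD), so it too was lowest in the last group. Over the 8 inflorescence arrays the 5 most like COR47 were AT5G39590 (0.992), AT3G27470 (0.991), FATB (0.989), AT1G44160 (0.988) and AT3G12620 (0.986), but there 6.88% of 7514 probe sets had an r over 0.9 with it. FATB, a thioesterase that releases saturated fatty acids from their carrier in plastids, had means of 2936 ± 66.7 in Col-7 inflorescences and 2276 ± 52.4 in gir inflorescences.

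For COR15A the arrays form a root and an inflorescence cluster, and over all of them 20.4% of the 8550 probe sets had an r over 0.9 with it. The highest were AT5G02240 (0.994), AT5G58330 (0.993), CHL (AT3G47860, 0.992), AT5G48220 (0.992) and SPL (0.992). SPL was at 2.1 to 5.33 in roots and passed the filter in inflorescences only, which favours likeness over all arrays. Over the 8 inflorescence arrays only 0.16% of 7514 probe sets had an r over 0.9. The highest were AT1G76550 (0.951), AT5G58330 (0.940), SPL (0.939), AT1G76880 (0.933) and AT5G24340 (0.932). SPL, a regulator of sporangium formation in anthers and ovules, had intensities of 123 to 155 in Col-7 inflorescences and 124 to 148 in gir inflorescences, a far narrower range than the 3833 to 9115 of COR15A.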

How the data were processed

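The deposited values are MAS5 intensities on a linear scale, 1 per probe set and array, computed by the authors with MAS5 per the submitters' processing notes. The MAS5 version, detection calls and genome build are not given in the sources used here. The mean of each array without its lowest and highest 2% was 500. Arrays were grouped by tissue and genotype in their titles, and the 64 control probe sets were left out of the fits. A pseudocount of 26 (near the 20th percentile over all arrays) was added before taking log2, so fold changes understate those of dim probe sets. Tests in a tissue kept the probe sets at or above the 40th percentile of the array on as many arrays as the smaller group holds. Each tissue was fitted apart with limma 3.58.1 (lmFit, eBayes) in R 4.3.3, two-sided, with Benjamini-Hochberg adjustment over all probe sets tested and a threshold of 0.05. The interaction and the tissue contrasts came from a fit over all 14 arrays. The fits were tested on simulated data. Of 14016 annotated probe sets, 13436 named 1 gene that matched the TAIR10.1 table. Figures used matplotlib 3.10.9 under Python 3.11.15.

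The members and lists were chosen with earlier results of these data known. Named genes are the members, list genes past the threshold, the relatives ERD10, ERD14 and COR15B, and for each member the 5 genes of highest correlation over all arrays and over the inflorescence arrays. HIRD11 is named as well because the lists hold so few measured genes, a choice made after its values were seen. Deviations from group means of equally numbered arrays correlated at 0.587, 0.191, 0.203 and 0.516 in inflorescences, and at 0.077, 0.007 and 0.017 in roots. Unequally numbered inflorescence arrays ran from -0.538 (gir 4 and Col-7 1) to 0.402 (gir 4 and Col-7 3), with gir 3 and Col-7 4 at 0.249. The values therefore do not settle whether single numbers pair the arrays. The main fits did not use the numbers, which entered as a block in an alternative only.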

Additional observations from a re-analysis of the deposited data

Results flagged for a closer look

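The genotype effect differed between inflorescences and roots by the interaction test for 3 of the 6 list genes tested in both tissues, against 18.2% of all probe sets. The differences (inflorescences minus roots, log2) were -0.80 for COR47, -1.105 for LTI30 and -2.65 for LEA4-5. LEA4-5 passed the filter in inflorescences through its Col-7 arrays alone, which favours a negative difference. Tissue, age, medium, glucose and sample handling cannot be told apart in these differences. The call for LTI30 (adjusted p = 0.042) was lost in 14 of 23 alternatives, and its adjusted p ranged from 0.00065 to 0.092. Of 30 groups of 4 arrays tested for an outlying array 1 held one, where about 1 in 20 would by chance. It was the 3' to 5' actin ratio of Col-7 inflorescence replicate 2, at 2.22 against 2.29 to 2.3. COR47 was lowest of its group on that array (5794) and COR15A highest (9115).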

How the results depend on the processing

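The fall of COR47 in gir inflorescences stayed past the threshold in all 18 alternatives run (log2 -0.78 to -0.67), as did its interaction in all 23. COR15A between tissues passed in all 14 alternatives of each genotype. The difference of COR47 between tissues in Col-7 was 0.366 after quantile normalization, -0.004 after median centring and 0.10 to 0.19 with single arrays left out. COR15A changed sign without a call, at 0.176 in inflorescences with replicates 3 and 4 alone (a setting chosen after seeing the data) and at -0.137 in the interaction with replicates 1 and 2 alone. With single arrays left out it ranged from -0.41 to 0.004 in inflorescences, from -0.51 to -0.28 in roots and from -0.032 to 0.383 in the interaction. HIRD11 was at 0.024 in inflorescences after median centring and at -0.085 to 0.04 with single arrays left out, and COR15B at 0.034 with replicates 3 and 4 alone. With single root arrays left out, ZAT10 ranged from -0.131 to 0.872, LEA4-5 from -0.133 to 0.181 and LTI30 from -0.038 to 0.097 in roots, and the list genes called in roots numbered 0 to 2. The replicate block changed no call of the 7 measured list genes, the only genes it was run for by name. With it COR47 was at -0.712 in inflorescences (adjusted p = 0.00048), COR15A at -0.17 (0.47), and 4865 probe sets passed there and 1281 in roots. Probe sets called in roots numbered 1636, and 616 without the filter, 707 in the joint fit and 814 to 1216 with single arrays left out (863 without gir replicate 1, 814 without gir replicate 2, 1038 without Col-7 replicate 2). In inflorescences 3487 were called, and 1669 with replicates 1 and 2 alone. In the interaction 2168 were called, 3283 without the filter and 1441 with the stricter one, which left COR15A untested in roots and in the interaction and LEA4-5 too. The cause of these shifts was not tested, beyond the smaller number of arrays or the other number of probe sets. Dim probe sets have differences bounded by the floor of 26.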
